A study of Mus musculus with 10 samples.

Results

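Potassium channel genes were examined across the lens epithelium of WT mice and of 2 mouse lines that overproduce TGF-β1. The genes are all symbols of the form Kcn followed by letters and an optional number in the deposited count table that reached at least 100 counts summed over the 10 libraries, which selected 64 of the 94 symbols of that form and of 50763 genes in all. The lowest members were Kcnk6 with 122 counts and Kcnd2 and Kcns2 with 123 counts each, and the highest genes of the same form that were not taken were Kcnk7 with 77, Kcnq1 with 68 and Kcnk4 with 57. By symbol, 29 members are voltage-gated channels, 11 inward rectifiers, 7 two-pore domain channels, 6 calcium- or sodium-activated channels and 11 auxiliary subunits.

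RNA-seq libraries were made from pools of lens epithelial explants of 3-week-old mice on the FVB/N background, 3 from WT, 3 from OVE853 and 4 from OVE918. OVE853 and OVE918 are separate homozygous transgenic families in which the αA-crystallin promoter, active in lens cells, drives a secreted and constitutively active human TGF-β1, and their explants carry subcapsular plaques along with the surrounding epithelium. A WT pool held up to 9 mice, an OVE853 pool up to 18 explants of 9 mice and an OVE918 pool up to 14 explants of 7 mice, so that replicates are pools and the tests measure the spread between pools. In such bulk samples, fewer cells of a type and less RNA per cell cannot be told apart.

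Potassium channels let K+ leave or enter the cell down its gradient and set the resting voltage of the membrane. Each pore is lined by a short filter loop that is shared by nearly all families, while the gate differs: voltage-gated channels open on depolarization, inward rectifiers pass current more readily inward, two-pore domain channels leak at rest, and a further group opens on intracellular calcium or sodium. Auxiliary subunits hold no pore and change the traffic or the gating of a pore-forming partner. In the avascular lens, K+ channels of the epithelium work with the Na+,K+-ATPase to hold the voltage and to carry the ion circulation on which transparency and volume depend.

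The coding sequence of the filter loop is shown for the members on which the results turn, because it is the feature that joins families of otherwise different build. Windows were read from GRCm39 on the coding strand, 5′ to 3′, and capitals mark the 12 bases that spell the filter signature: in frame, a codon with T in the middle, a glycine codon (GGN), a codon that starts with T and again a glycine codon.
Kcnj13, chr1:87316728-87316772, minus strand: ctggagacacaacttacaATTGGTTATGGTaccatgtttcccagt
Kcna5, chr6:126510693-126510737, minus strand: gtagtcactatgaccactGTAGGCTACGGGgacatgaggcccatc
Kcng4, chr8:120352634-120352678, minus strand: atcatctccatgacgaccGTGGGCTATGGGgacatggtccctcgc
Kcnh1, chr1:192020047-192020091, plus strand: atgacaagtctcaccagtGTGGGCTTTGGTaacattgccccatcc
Kcnma1, chr14:23578466-23578510, minus strand: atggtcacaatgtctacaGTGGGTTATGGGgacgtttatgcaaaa
Kcnk1, first pore, chr8:126722532-126722553 joined to chr8:126751751-126751773, plus strand: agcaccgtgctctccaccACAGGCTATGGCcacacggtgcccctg
Kcnk1, second pore, chr8:126752053-126752097, plus strand: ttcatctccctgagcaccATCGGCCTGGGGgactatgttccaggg
The pattern was found in frame in 52 of 53 pore-forming members and in 0 of 11 auxiliary members. The exception was Kcnk1, a two-pore channel that holds 2 filter loops in 1 chain, and its windows were found with a wider pattern, any codon and a glycine codon in turn after a threonine codon (ACN). Of the 52, 9 held a second match, and a match is a description of letters whose place relative to the pore was not established for second matches.

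Between 24073311 and 31908525 counts fell on genes in each library. Levels are given as CPM, the counts of a gene relative to the library size scaled by TMM, and levels are compared between genes only after division by exon length (FPKM). A difference is called where the FDR, the Benjamini-Hochberg adjusted p of edgeR's quasi-likelihood test over 18058 tested genes, was at most 0.05 and the log2 fold change at least 1 in size. Mouse Tgfb1, whose counts can also take up reads of the human transgene, was 47.6 to 59.7 CPM in WT, 325 to 347 in OVE853 and 696 to 844 in OVE918, which matches the labels. Lens epithelium markers summed to 106331 to 192476 CPM over 10 genes. Most of this was the crystallin gene Cryaa, at 74415 to 145008 CPM, so that the sum mainly follows a single gene. Foxe3 was at 398 to 804 CPM and Pax6 at 351 to 458 CPM over the libraries. WT replicate 3 stood apart: 14 retinal neuron markers summed to 1148 CPM there, against 174 and 180 in WT replicates 1 and 2, 47.9 to 111 in OVE853 and 44.8 to 201 in OVE918, with the highest OVE918 value in replicate 1. Of those markers 2 were called lower in OVE853 and 1 in OVE918, where 14 and 12 of the 14 had a p under 0.05 before adjustment and DESeq2 called 9 and 3. Their median log2 fold change was -3.03 and -2.24, and -1.32 and -0.54 without WT replicate 3. The 9 markers of Müller glia summed to 8381 to 10856 CPM in WT, 5835 to 6505 in OVE853 and 6392 to 7126 in OVE918. Of these, 6 fell in OVE853 and 5 in OVE918, with medians of -1.25 and -1.73, or 2 and 4 with medians of -0.87 and -1.15 without WT replicate 3, and their part in the channel results was not tested. The list holds Apoe and Slc1a3, which the paper names in a set mostly elevated in normal lens epithelium. Its sum may thus not measure glia alone. For both marker lists, the share of all tested genes called lower over all libraries was 3.72% in OVE853 and 5.34% in OVE918. Corneal epithelium markers also differed within WT, at 282, 972 and 1583 CPM in replicates 1, 2 and 3 against 95.4 to 187 in the transgenic libraries. Lens fiber cell markers ranged from 11903 to 68146 CPM over the libraries with 0 of 14 called by edgeR, where 0 in OVE853 and 8 in OVE918 had a p under 0.05 before adjustment and DESeq2 called 0 and 6.

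Most of the potassium channel message came from few genes. The leading 4 members of each group held 57.1% of the summed FPKM of the family in WT, 64.9% in OVE853 and 63.4% in OVE918. Kcnj12, which encodes the strong inward rectifier Kir2.2, was highest at 69.2 ± 10.3 FPKM in WT (SD, n = 3), or 24.8% of the sum. Kcnh2, the HERG-type channel known for cardiac repolarization, and Kcnh1, the ether-à-go-go channel, followed at 34.1 ± 4.3 and 29.9 ± 2.26 FPKM in WT (SD, n = 3), and their WT ranges overlapped. Kcnk1, the two-pore leak channel TWIK-1, lay at 26.0 ± 3.83 FPKM, within reach of Kcnh1. Kcnj11, the pore of the ATP-sensitive channel, had a mean of 14.4 ± 10.3 FPKM in WT with an SD nearly as large as the mean. Of the 64 members, 23 had a mean of at least 1 FPKM over the 10 libraries and 14 reached 2 FPKM in at least 5 libraries. These 14 comprise 5 voltage-gated channels, 3 inward rectifiers, 2 two-pore channels and 4 auxiliary subunits.

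**Figure D1:**
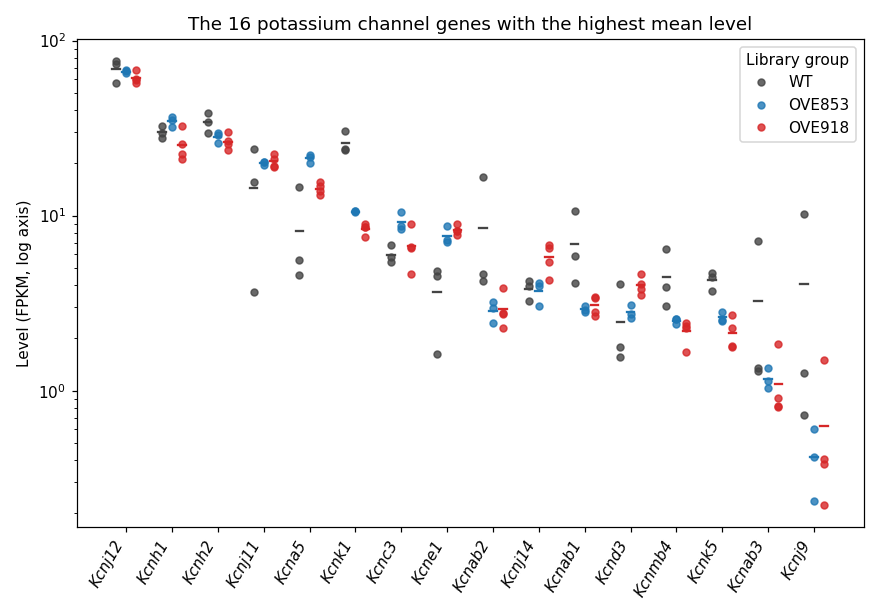
Level per library in FPKM on a log axis for the 16 members with the highest mean over the 10 libraries, ordered by that mean, with 1 point per library and a bar at the group mean. Kcnj12 leads in all 3 groups, and Kcnk1 is the member of the upper 6 whose transgenic libraries all lie below the WT libraries.

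Most potassium channel genes that passed the test were lower in the transgenic lines than in WT. In OVE853, 14 of the 62 members tested passed, 2 elevated and 12 reduced, where 6.89% of all tested genes passed, 3.17% higher and 3.72% lower. In OVE918, 20 passed, 2 elevated and 18 reduced, where 8.79% of all tested genes passed, 3.45% higher and 5.34% lower. The log2 fold change was below 0 for 49 of 62 members in each line, with a median of -1.59 in OVE853 and -1.51 in OVE918, while the median over all tested genes was -0.01 and 0.01. Without WT replicate 3 the members' medians were -0.63 and -0.32, with 47 and 38 of the 62 below 0, against a median of -0.02 and 0.02 over all genes tested in that fit. Of the members, 12 passed in both lines, where 5.06% of all tested genes did. Both lines were set against the same WT libraries, so that these counts are not independent of each other. Low members could also reach the count minimum through a high WT replicate 3, as Kcnd2 did, which favours values below 0 for them. Taking only the order of the libraries, 32 members lay wholly below WT and 5 wholly above it in OVE853, where 20.2% and 21.0% of all tested genes did. In OVE918, 16 lay wholly below and 4 wholly above, where 13.6% and 12.0% did. Kcns2 and Kcnq3 were too low to be tested.

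These counts moved with single libraries. Without WT replicate 3, 9 members passed in OVE853, 3 elevated and 6 reduced, and 7 of them were among the 14, against 4.96% of all genes tested in that fit. In OVE918, 16 passed without it, 5 elevated and 11 reduced, and 12 of them were among the 20, against 7.28% of genes. The shares of all genes by direction were 2.75% higher and 2.21% lower in OVE853, and 3.38% higher and 3.91% lower in OVE918. Without WT replicate 1 the counts were 29 in OVE853, against 10.6% of all genes tested in that fit, and 26 in OVE918, against 11.3%. The OVE853 count was 2 without OVE853 replicate 1 (3.28% of genes), 2 without OVE853 replicate 3 (3.18%), 5 without OVE853 replicate 2 (4.09%) and 9 without OVE918 replicate 3 (5.45%). The OVE918 count was 12 without OVE918 replicate 3 (7.19%). Under a filter of 2 FPKM in 5 libraries, which only approximates that of the study because other exon lengths were used, the 14 members kept gave 4 calls in OVE853 (Kcna5 and Kcne1 elevated, Kcnab1 and Kcnk1 reduced) against 4.43% of genes, 2.51% higher and 1.91% lower, and 6 in OVE918 (Kcne1 elevated, Kcnab1, Kcnab2, Kcnk1, Kcnk5 and Kcnmb4 reduced) against 5.61%, 2.58% higher and 3.03% lower. Kcnk1 and Kcng4 were called in OVE853 in all 10 fits that left out 1 library. In OVE918 this held for 9 members, Kcne5, Kcng3, Kcng4, Kcnh5, Kcnip1, Kcnj13, Kcnj3, Kcnk1 and Kcnn3.

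**Figure D2:**
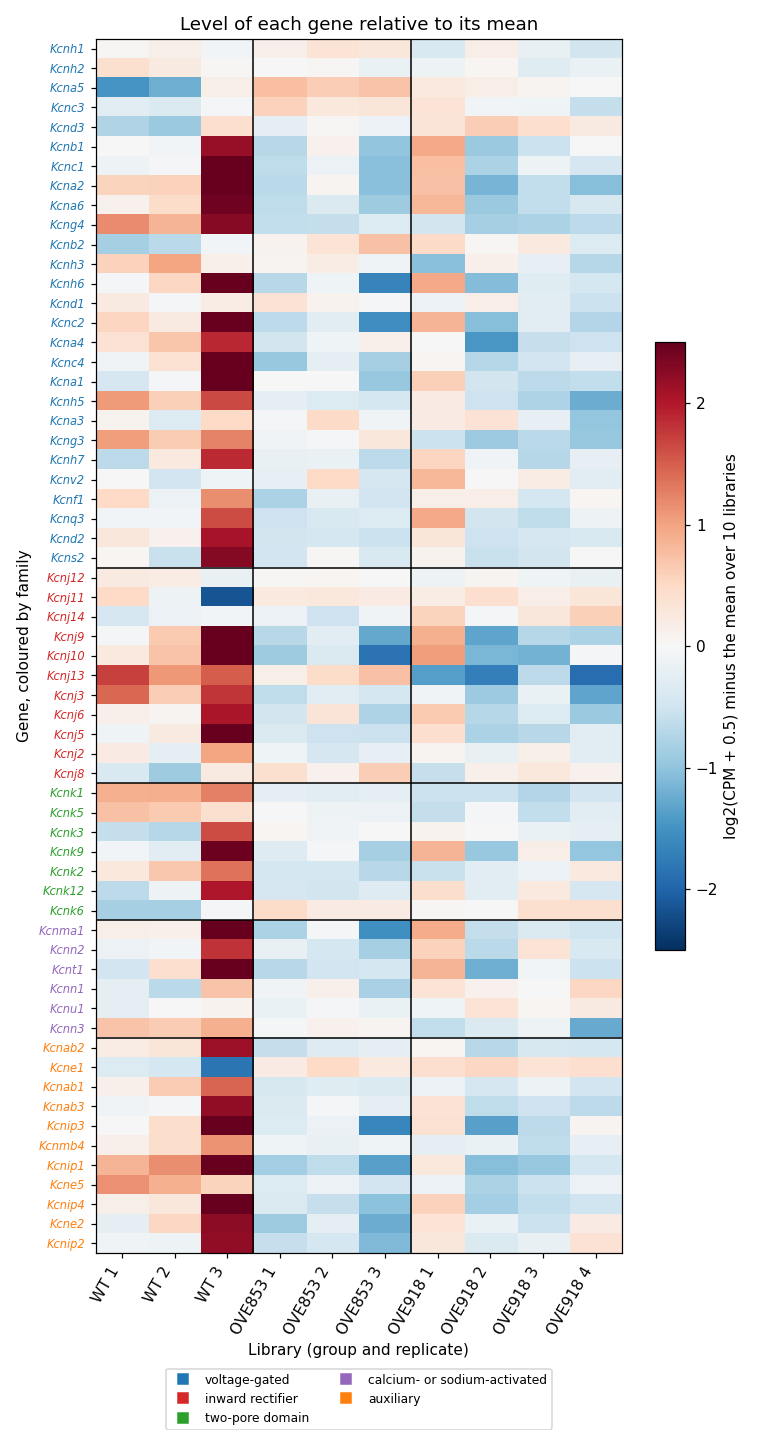
Log2(CPM + 0.5) of 62 of the 64 members minus the mean of each over the 10 libraries, with columns for the libraries and rows grouped by family and ordered by level. Colours end at 2.5 in either direction. WT replicate 3 is the highest of the 10 libraries for 44 of 64 members, and Kcna5, Kcne1 and Kcnk6 are among the rows that are lower in WT replicates 1 and 2 than in every OVE853 library.

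Of the 7 two-pore domain members, 0 rose and 2 fell in OVE853, and 0 rose and 3 fell in OVE918. Over all tested genes, 3.17% rose and 3.72% fell in OVE853, and 3.45% rose and 5.34% fell in OVE918. Kcnk1 was read at 54.4, 55.0 and 70.0 CPM in WT replicates 1 to 3, at 24.3, 24.1 and 24.4 in the OVE853 libraries and at 19.8, 19.8, 17.3 and 20.7 in the OVE918 libraries. Every transgenic library lay below every WT library, and the OVE853 and OVE918 ranges did not overlap either. It was 2.47-fold lower in OVE853 (log2 fold change -1.30, SE 0.11, FDR = 0.000101) and 3.08-fold lower in OVE918 (log2 fold change -1.62, SE 0.11, FDR = 6.27e-06). Without WT replicate 3 the fold changes were -1.21 and -1.50 on the log2 scale and both passed, so that the reduction of this leak channel was also present against the other WT libraries.

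Kcnk5, the acid-sensitive leak channel TASK-2, had 16.1, 15.3 and 12.7 CPM in WT, 9.65, 8.67 and 8.57 in OVE853, and 6.16, 9.26, 6.06 and 7.76 in OVE918. WT replicate 3 was here the lowest WT library, and still above every transgenic library. The reduction passed in OVE918 at a log2 fold change of -1.01 (SE 0.17, FDR = 0.00194). In OVE853 the log2 fold change was -0.71 (FDR = 0.0259), under the minimum size. The OVE918 call fell under that size without OVE918 replicate 1 or 3 or WT replicate 1 or 2, with -0.93 as the value nearest 0.

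Kcnk2 encodes the mechanically gated leak channel TREK-1 and was low throughout. It was 0.604, 0.968 and 1.84 CPM in WT, 0.174, 0.178 and 0.0659 in OVE853, and 0.123, 0.254, 0.325 and 0.59 in OVE918, so that neither line overlapped WT. Both reductions passed, at 7.99-fold in OVE853 (FDR = 0.0131) and 3.56-fold in OVE918 (FDR = 0.0395), and that of OVE918 did not pass without WT replicate 3 (-1.30, FDR = 0.175). It was also lost without WT replicate 2, OVE853 replicate 1 or 2 or OVE918 replicate 1, 2 or 3, and the OVE853 call was lost without OVE853 replicate 1 or 3 (FDR up to 0.0628). Kcnk6, which encodes the related channel TWIK-2, had 0, 0 and 11 counts in the WT libraries, 25, 15 and 16 in OVE853 and 10, 11, 19 and 15 in OVE918, and did not pass in either line (FDR = 0.117 and 0.127). It passed in both lines without WT replicate 3, where both WT libraries left are at 0.

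Among the 11 inward rectifiers, 1 fell in OVE853 and 2 fell in OVE918, where 3.72% and 5.34% of all tested genes fell. The leading member Kcnj12 was at 338, 327 and 254 CPM in WT, 295, 299 and 288 in OVE853, and 264, 302, 267 and 254 in OVE918. Its groups overlapped, with log2 fold changes of -0.06 (SE 0.12, FDR = 0.76) and -0.17 (SE 0.11, FDR = 0.314). No change of this most abundant potassium channel message passed the test.

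Kcnj13, which encodes the weak rectifier Kir7.1 of ion-transporting epithelia, followed the other course. It was read at 10.7, 6.77 and 9.25 CPM in WT, 3.31, 4.19 and 5.21 in OVE853, and 0.821, 0.545, 1.69 and 0.409 in OVE918. The 3 groups form 3 separate ranges, with WT highest and OVE918 lowest. Against WT, it was 10.1-fold lower in OVE918 (log2 fold change -3.34, SE 0.41, FDR = 0.00036) and called in all 10 leave-one-out fits. The OVE853 difference was -1.07 (SE 0.41, FDR = 0.099) and did not pass. It passed without OVE918 replicate 3 (FDR = 0.0429), with only the groups compared (FDR = 0.0436) and in DESeq2 (FDR = 0.0382). Because Kcnj13 is known from pigmented and ciliary epithelia of the eye, their markers are given beside it: 12 pigmented epithelium markers summed to 115 to 239 CPM in WT, 39.7 to 83.2 in OVE853 and 40.5 to 76.3 in OVE918, and 11 markers of the non-pigmented ciliary epithelium to 1405 to 1750, 1482 to 1733 and 852 to 1041. Of the former list 4 genes fell in each line, and of the latter 6 fell in OVE853 and 10 in OVE918. The ciliary list holds Msx1, which the paper gives as higher in normal lens epithelium than in fibers. It also holds Slc6a13, which the paper names in a set mostly elevated in normal lens epithelium. Both are among the 10, and the sum may thus not measure ciliary cells alone. Over all tested genes, 3.72% fell in OVE853 and 5.34% in OVE918. None of the genes of either list was at 0 in all libraries, although Lrat, Ttr and Slc45a2 were at 0 in at least 1, and the part of these cells in the Kcnj13 result was not tested.

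Kcnj3 encodes a G-protein-activated rectifier. It had 4.97, 2.61 and 6.48 CPM in WT against 0.813, 1.17 and 0.989 in OVE853 and 1.4, 0.581, 1.3 and 0.318 in OVE918, with both lines wholly below WT. It was 4.72-fold lower in OVE853 (FDR = 0.0175) and 5.17-fold lower in OVE918 (FDR = 0.00554), and both calls were kept without WT replicate 3, at log2 fold changes of -1.96 and -2.06. The OVE853 call was lost without any 1 of the OVE853 libraries, with an FDR up to 0.0806. Kcnj11 stood out for its WT spread: it had 75.7, 48.6 and 11.5 CPM in WT, 63.3, 63.5 and 61.4 in OVE853, and 59.6 to 71.0 in OVE918. WT replicate 3 held 0.185 times the mean of the other WT libraries, and no difference passed. Abcc8, the sulfonylurea receptor that assembles with the Kcnj11 protein, showed the same order within WT, at 100, 61.4 and 14.6 CPM.

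Of 27 voltage-gated members tested, 1 rose and 5 fell in OVE853, and 1 rose and 7 fell in OVE918. The shares of all tested genes that rose and fell were 3.17% and 3.72% in OVE853, and 3.45% and 5.34% in OVE918. Kcna5, which encodes the delayed rectifier Kv1.5, was the elevated gene in OVE853. It had 13.1, 15.9 and 41.5 CPM in WT, 63.2, 57.5 and 62.0 in OVE853, and 44.5, 42.3, 39.4 and 37.3 in OVE918. Every OVE853 library was above WT, and OVE918 overlapped WT through WT replicate 3 alone. Against WT it was elevated 2.58-fold in OVE853 (log2 fold change 1.37, SE 0.35, FDR = 0.0321), while OVE918 did not pass at 0.79 (SE 0.33, FDR = 0.128). Without WT replicate 3, both lines passed, at 2.04 (FDR = 4.43e-06) and 1.49 (FDR = 1.12e-05). The OVE853 call was lost without OVE853 replicate 1, 2 or 3, OVE918 replicate 3 or WT replicate 2, with an FDR up to 0.0957.

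Kcng4 and Kcng3 encode silent subunits, which form no channel alone and alter partners of the Kcnb family. Kcng4 was read at 8.55, 6.66 and 18.9 CPM in WT, 2.12, 2.13 and 2.67 in OVE853, and 2.42, 1.74, 1.8 and 2.04 in OVE918, with WT replicate 3 far above the other WT libraries and all WT libraries above all transgenic ones. The reduction was 4.92-fold in OVE853 (log2 fold change -2.30, SE 0.36, FDR = 0.00266) and 5.67-fold in OVE918 (SE 0.33, FDR = 0.000506), and -1.75 and -1.93 without WT replicate 3, both called. Kcng3, at 1.86, 1.27 and 2.2 CPM in WT, fell to 0.581, 0.604 and 0.89 in OVE853 and to 0.287, 0.109, 0.216 and 0.0908 in OVE918. Its ranges did not overlap between any groups, with a 2.56-fold reduction in OVE853 (log2 fold change -1.36, FDR = 0.0458) and a 9.83-fold one in OVE918 (-3.30, FDR = 0.000399). Kcng3 had only 226 counts over the 10 libraries, so that its OVE918 levels lie near the floor and the size of that reduction is imprecise. The OVE853 call was lost without WT replicate 3 (-1.20, FDR = 0.12), WT replicate 1, any 1 OVE853 library or OVE918 replicate 3, with an FDR up to 0.149. Kcnb2, a delayed rectifier with which such subunits assemble, was at 1.86, 2.12 and 3.52 CPM in WT, 3.98, 4.83 and 6.49 in OVE853 and 2.81 to 5.34 in OVE918, and did not pass in the fit over all libraries (FDR = 0.0564 and 0.129). It passed in both lines without WT replicate 3 and, in OVE853, under some other settings, among them DESeq2 (FDR = 0.0176).

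Among the ether-à-go-go members, the abundant Kcnh1 had 215, 234 and 201 CPM in WT, 231, 266 and 256 in OVE853, and 162, 235, 185 and 152 in OVE918, with overlapping groups and log2 fold changes of 0.21 and -0.24 (FDR = 0.358 and 0.271). Kcnh2 was at 169, 150 and 131 CPM in WT, 114 to 131 in OVE853 and 104 to 132 in OVE918. Its log2 fold changes of -0.28 (FDR = 0.135) and -0.36 (FDR = 0.0457) did not reach the minimum size. The OVE918 value thus met the FDR limit alone, and its FDR was 0.016 to 0.125 over the leave-one-out fits. Kcnh5, a low member, had 3.07, 2.08 and 4.84 CPM in WT, 0.959, 0.852 and 0.758 in OVE853, and 1.48, 0.69, 0.505 and 0.227 in OVE918, without overlap. It fell in both lines (log2 fold change -1.95, FDR = 0.0364, and -2.19, FDR = 0.0117). The OVE853 call was lost without WT replicate 3 (-1.61, FDR = 0.0838), OVE918 replicate 3 or any 1 OVE853 library. Kcnh6 and Kcnh7, which are also low, did not pass, at -2.94 (FDR = 0.0847) and -2.13 (FDR = 0.163) in OVE853 and at -1.99 (FDR = 0.157) and -1.52 (FDR = 0.26) in OVE918.

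Kcnh3 had 4.84, 6.59 and 3.42 CPM in WT, 3.25, 3.59 and 2.83 in OVE853 and 1.23, 3.42, 2.6 and 1.68 in OVE918, where it passed (-1.14, FDR = 0.0423), while the OVE853 value of -0.62 did not (FDR = 0.26). That call remained in only 2 of 10 leave-one-out fits, 1 of them without WT replicate 3. The remaining voltage-gated calls were of genes highest in WT replicate 3. Kcna4 and Kcnd2 encode inactivating A-type channels and Kcnc4 a fast Kv3 channel. Kcna4 was at 1.77, 2.34 and 6.02 CPM in WT, 0.784, 1.14 and 1.42 in OVE853 and 1.27, 0.145, 0.685 and 0.726 in OVE918, where it passed (-2.27, FDR = 0.0241). Kcnc4 was at 0.777, 1.27 and 10.7 CPM in WT against 0.203, 0.639 and 0.264 in OVE853 and 0.903, 0.327, 0.469 and 0.681 in OVE918, and passed in both (-3.54, FDR = 0.0395, and -2.85, FDR = 0.0432). Both genes had their highest level in WT replicate 3, and without it neither passed, at -1.55 (FDR = 0.0839) for Kcna4 in OVE918 and at -1.51 (FDR = 0.129) and -0.80 (FDR = 0.393) for Kcnc4. Kcna4 was also lost without OVE918 replicate 3 or 4. The calls of Kcnc4 remained in 3 of 10 leave-one-out fits in OVE853 and in 2 in OVE918. Kcnd2 had 10, 9 and 83 counts in the WT libraries, 2, 2 and 1 in OVE853 and 11, 1, 2 and 2 in OVE918. Its WT level was 23.6 times that of OVE853, with an exact 95% interval of 9.78 to 74.1 that covers counting error only. It passed in both lines (FDR = 0.0283 and 0.0493) and in neither without WT replicate 3 (FDR = 0.0999 and 0.382). Its calls remained in 5 and 2 of the 9 leave-one-out fits in which it was tested, and other annotated genes overlap it on its strand, so that its counts are uncertain.

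Of the 6 calcium- or sodium-activated members, 0 passed edgeR's test in OVE853, where 3 had a p under 0.05 before adjustment and 3 (Kcnma1, Kcnn2 and Kcnt1) passed in DESeq2, and 1 fell in OVE918. In edgeR's test, 6.89% of all tested genes passed in OVE853 and 5.34% fell in OVE918. Kcnma1, the large-conductance BK channel and the leading member by CPM, had 11.2, 11.1 and 64.2 CPM in WT, 5.67, 9.87 and 3.16 in OVE853, and 19.8, 6.5, 7.72 and 7.04 in OVE918. The high values were WT replicate 3 and OVE918 replicate 1. Neither difference passed (log2 fold change -2.21, FDR = 0.0878, and -1.49, FDR = 0.173), and without WT replicate 3 they were -0.87 and -0.12. Kcnn3, a small-conductance channel that opens on calcium through calmodulin, was even within WT, at 1.99, 1.86 and 2.34 CPM, with 0.988, 1.14 and 1.09 in OVE853 and 0.493, 0.69, 0.901 and 0.136 in OVE918. It was reduced 3.64-fold in OVE918 (FDR = 0.0133), also without WT replicate 3 (log2 fold change -1.76, FDR = 0.025), while the OVE853 value of -0.94 did not pass (FDR = 0.17).

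Of the 11 auxiliary subunits, 1 rose and 4 fell in OVE853, and 1 rose and 5 fell in OVE918. Among all tested genes, the shares that rose and fell were 3.17% and 3.72% in OVE853, and 3.45% and 5.34% in OVE918. Kcne1, the minK subunit that slows Kcnq1 channels, was the member elevated in both lines. It was at 15.8, 14.8 and 5.3 CPM in WT, 23.2, 28.6 and 23.9 in OVE853, and 27.0, 29.3, 25.6 and 27.0 in OVE918, with both lines above every WT library. It rose 2.11-fold in OVE853 (log2 fold change 1.08, SE 0.31, FDR = 0.0475) and 2.28-fold in OVE918 (1.19, SE 0.3, FDR = 0.022). Here WT replicate 3 was the lowest library, and without it the values were 0.69 (FDR = 0.00458) and 0.82 (FDR = 0.000684), under the minimum size with smaller FDR. The OVE853 call remained in 1 of 10 leave-one-out fits, that without WT replicate 1, with an FDR up to 0.123. The OVE918 call was also lost without OVE918 replicate 2. Kcnq1, its classical partner, had too few counts to be a member.

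Kcne5 and Kcne2 belong to the same small single-span family. Kcne5 had 4.45, 3.65 and 2.8 CPM in WT, 1.28, 1.53 and 1.12 in OVE853, and 1.52, 0.799, 1.05 and 1.54 in OVE918. WT replicate 3 was the lowest WT library and still above both lines. It was 2.77-fold lower in OVE853 (FDR = 0.0132) and 2.96-fold lower in OVE918 (FDR = 0.00387), and both calls held without WT replicate 3. The OVE853 call was lost without OVE853 replicate 1 or 3, with an FDR up to 0.0656. Kcne2 was at 0.82, 1.75 and 6.85 CPM in WT and at 0.349, 0.852 and 0.165 in OVE853, which overlapped, with 0.577 to 1.48 in OVE918. It passed in OVE853 (-2.80, FDR = 0.0464), not without WT replicate 3 (-1.54, FDR = 0.15), and remained in 2 of 10 leave-one-out fits, those without WT replicate 1 or 2.

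Kcnab1 and Kcnab2 encode cytoplasmic beta subunits that bind Kv1 channels. Kcnab1 had 16.3, 23.2 and 41.7 CPM in WT, 11.1, 11.9 and 11.4 in OVE853, and 13.3, 11.0, 13.5 and 10.5 in OVE918. It fell in both lines (log2 fold change -1.24, FDR = 0.018, and -1.16, FDR = 0.011), and without WT replicate 3 the values of -0.82 and -0.72 were under the minimum size at FDR of 0.00968 and 0.00934. Leaving out OVE853 replicate 1, 2 or 3 also ended the OVE853 call, with an FDR up to 0.0686. Kcnab2 was at 22.1, 24.2 and 86.6 CPM in WT, 12.6, 15.5 and 16.6 in OVE853, and 20.1, 11.8, 14.5 and 14.2 in OVE918. It passed in OVE918 (-1.55, FDR = 0.0399), where it was at -0.62 without WT replicate 3, and not in OVE853 (-1.58, FDR = 0.058). The OVE918 call remained in 3 of 10 leave-one-out fits. Both genes were below WT in every transgenic library, also against WT replicates 1 and 2.

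Kcnmb4, a neuronal beta subunit of BK channels, had 4.19, 5.36 and 8.85 CPM in WT, 3.52, 3.27 and 3.49 in OVE853, and 3.12, 3.34, 2.27 and 3.22 in OVE918. It passed in OVE918 (-1.04, FDR = 0.0184) and not without WT replicate 3 (-0.68, FDR = 0.0618) or OVE918 replicate 3. Kcnip1, a calcium-binding partner of Kv4 channels, was at 4.36, 5.55 and 21.2 CPM in WT, 0.988, 1.24 and 0.56 in OVE853, and 2.75, 0.799, 0.901 and 1.5 in OVE918. It was reduced 11.1-fold in OVE853 (FDR = 0.0118) and 7.01-fold in OVE918 (FDR = 0.0109), and at -2.44 and -1.75 on the log2 scale without WT replicate 3 it still passed in both. Leaving out OVE853 replicate 1 or 3 ended the OVE853 call, with an FDR up to 0.0598. A protein-coding gene and long non-coding RNAs overlap Kcnip1 on its strand, and Kcng4, Kcnk2, Kcnk5 and Kcnma1 share their strand with annotated non-coding or pseudogene loci, so that their counts are uncertain to that extent.

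**Figure D3:**
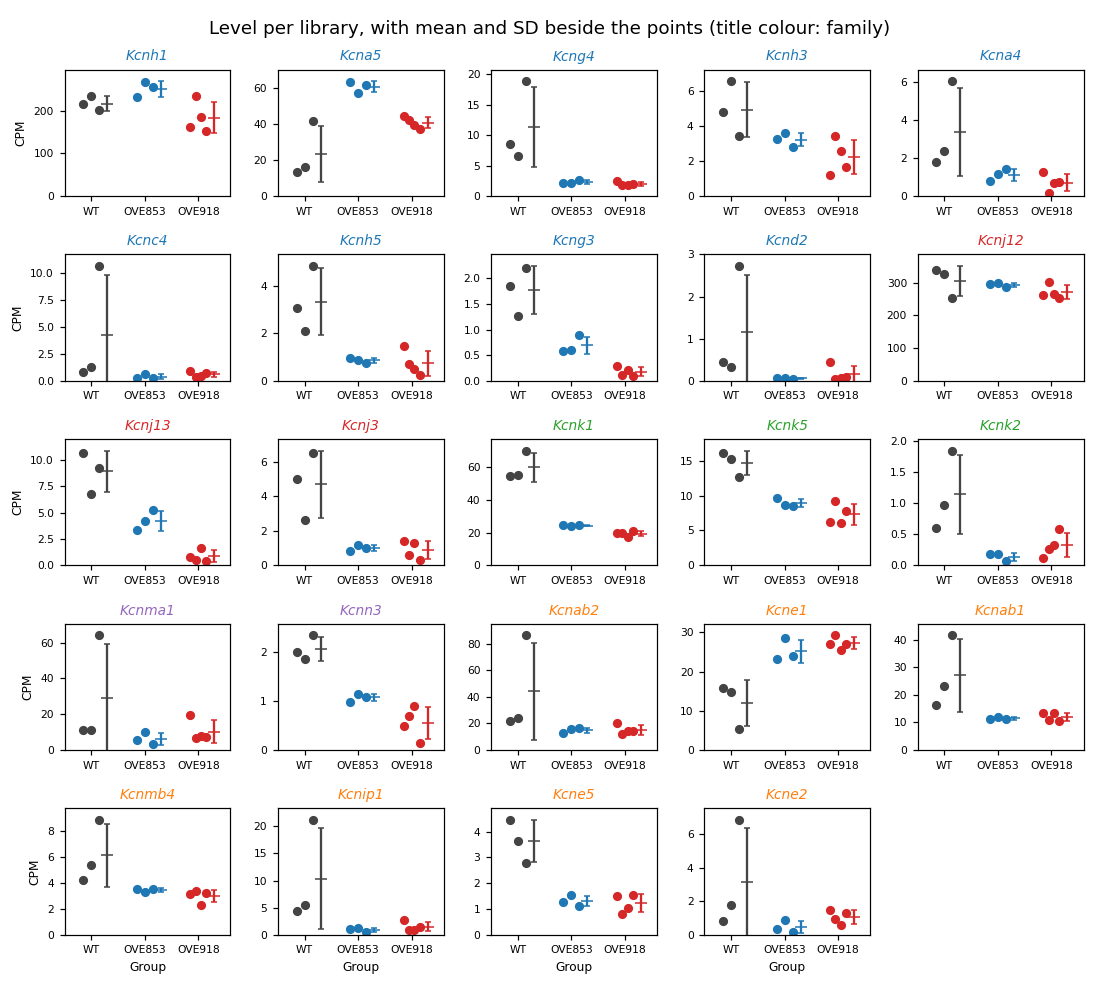
CPM per library from 0 for 24 members named by the rule on calls and levels, with 1 point per library (WT grey, OVE853 blue, OVE918 red) and the mean with SD beside the points, with no bar drawn below 0. Title colours give the family: voltage-gated blue, inward rectifier red, two-pore green, calcium- or sodium-activated purple, auxiliary orange. Kcnk1 and Kcnk5 show tight groups, whereas Kcnc4, Kcnd2, Kcnip1 and Kcnma1 have a single high WT point, replicate 3.

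**Figure D4:**
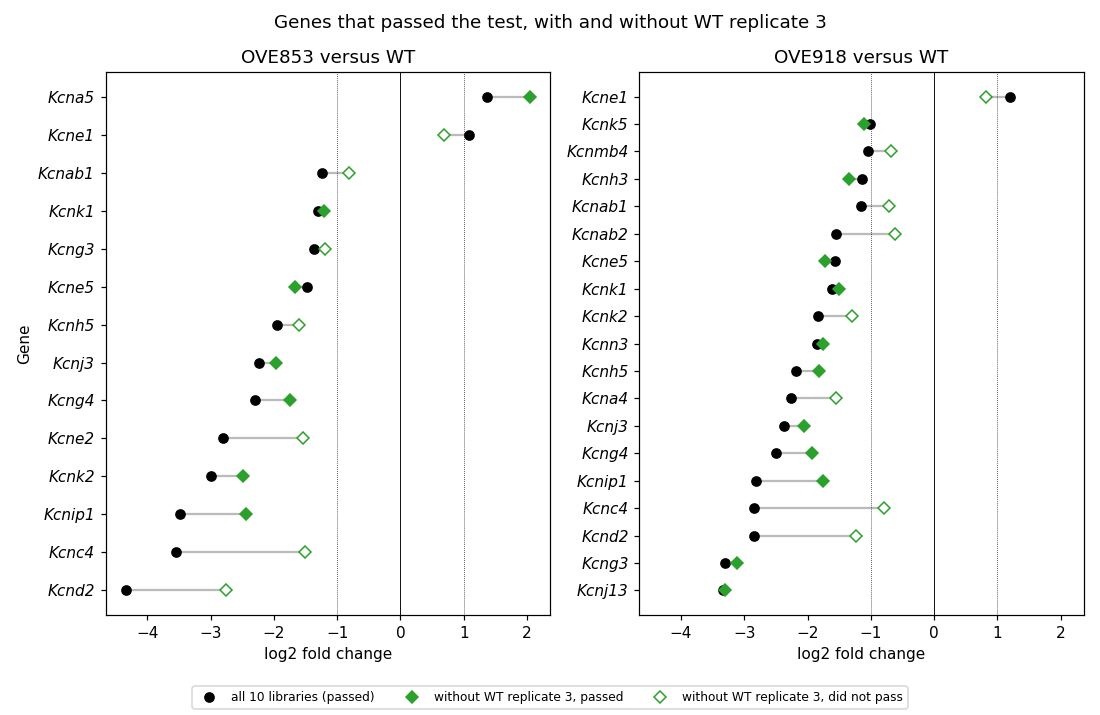
Log2 fold changes of members called in each line (14 of 14 in OVE853 and 19 of 20 in OVE918), with all 10 libraries (black) and without WT replicate 3 (green, filled where the call was kept). Dotted lines mark the minimum size of 1. Kcnk1, Kcne5, Kcng3 and Kcnj13 moved little, whereas Kcnc4, Kcnd2 and Kcnip1 in both lines and Kcne2 in OVE853 moved toward 0 by over 1.

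The high level of potassium channel genes in WT replicate 3 reached across families. It was the highest of the 10 libraries for 44 of 64 members, against 24.3% of all tested genes, the highest WT library for 52 members, against 40.0%, and more than 2 times both other WT libraries for 38 members, against 8.72% of all tested genes. These 38 were 17 voltage-gated, 6 inward rectifier, 4 two-pore, 4 calcium- or sodium-activated and 7 auxiliary members. Within OVE918, replicate 1 was the highest library for 32 of the 38, and for 38 of all 64 members, against 19.9% of all tested genes. In OVE853, replicate 2 was the highest library for 38 of 64 members, against 35.4%. Of the 38 that were high in WT replicate 3, 7 were called lower in either line. Over all tested genes, 3.72% were called lower in OVE853 and 5.34% in OVE918, and the share in either line was not counted. The 38 were picked by a high WT library, which favours lower values in the lines, so that this count is not a separate result. Ratios of WT replicate 3 to the mean of WT replicates 1 and 2 were led by Kcnk12 at 24.2 and Kcns2 at 23.9, and included Kcnj9 at 10.3, Kcnj10 at 8.67 and Kcnc1 at 6.7. Low members high in WT replicate 3 could reach the minimum of 100 counts through that library, as Kcnd2 did with 83 of its 123. For such members, these counts and ratios follow in part from the entry rule. Kcnj9 and Kcnj10 encode rectifiers of neurons and glia and Kcnc1 a fast neuronal channel.

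Values of Kcnc1 show the shape of this group: 5.05, 5.43 and 35.1 CPM in WT, 3.4, 4.97 and 2.41 in OVE853, and 9.69, 2.98, 5.01 and 3.99 in OVE918. WT replicate 3 and OVE918 replicate 1 were the 2 highest libraries, as they were for the summed retinal neuron markers. Photoreceptor markers summed to 48.1, 31.8 and 115 CPM in WT, 32.2 to 61.1 in OVE853, and 121 in OVE918 replicate 1 against 51.5 to 82.7 in the other OVE918 libraries. No retinal neuron marker was at 0 in any library, and the part of these markers in the channel results was not tested. Other members did not follow: Kcnj12, Kcnh1, Kcnh2, Kcnk5, Kcne5, Kcnj11, Kcne1 and Kcnh3 had their lowest WT value in replicate 3, and these 8 are all the members with that order.

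**Figure D5:**
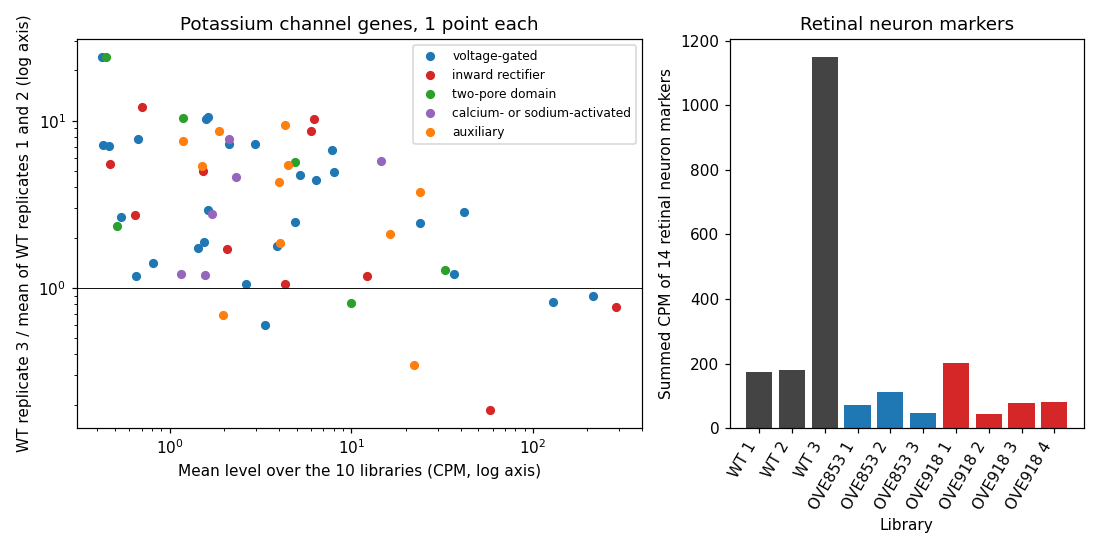
Left, ratio of WT replicate 3 to the mean of WT replicates 1 and 2 against the mean level, both on log axes, for 61 of 64 members by family (Kcnk6, at 0 in both other WT libraries, is among those not drawn). Right, summed CPM of 14 retinal neuron markers per library, which reaches 1148 in WT replicate 3.

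Between the transgenic lines, Kcnj13 alone passed among 62 members tested, where 0.244% of all tested genes passed and 0.194% were lower, and 7 members had a p under 0.05 before adjustment. It was lower in OVE918 by a log2 fold change of -2.27 (SE 0.4, FDR = 0.0474). The call was lost without OVE853 replicate 1, 2 or 3, OVE918 replicate 1, 2 or 4 or WT replicate 2, with values from -2.83 to -2.03 and an FDR up to 0.272 over the leave-one-out fits, and it held without WT replicate 3 (-2.24, FDR = 0.0244). Kcng3 followed at -1.94 (FDR = 0.0795) and passed without WT replicate 3, where 0.932% of all genes did. All OVE918 libraries were above all OVE853 libraries for 4 members, among them Kcnd3, Kcnip2 and Kcnj14, and below them for 5, where 11.0% and 12.8% of all tested genes were. Kcna5 was lower in OVE918 than in OVE853 in every library, at -0.58 (FDR = 0.373). Kcnk1 differed by -0.32 (FDR = 0.166) and Kcnh1 by -0.45 (FDR = 0.15). A p that misses the threshold does not show that the lines were alike in these genes.

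Genes that work with potassium channels were counted as lists. Over all tested genes, 3.17% rose and 3.72% fell in OVE853, and 3.45% rose and 5.34% fell in OVE918. Whether any list differed from these shares was not tested. Of 9 tested partners without the Kcn prefix, 0 rose and 1 fell in each line by edgeR's test. Before adjustment, 7 in OVE853 and 8 in OVE918 had a p under 0.05, and DESeq2 called 1 and 3. The gene called by edgeR was Lrrc38, a gamma-type subunit of BK channels. It was at 4.49, 4.13 and 7.08 CPM in WT, 0.395 to 1.05 in OVE853 and 0.272 to 0.78 in OVE918 (log2 fold change -2.90, FDR = 0.00304, and -3.43, FDR = 0.000396). Of 11 tested Na+,K+-ATPase subunits and regulators, 1 rose and 1 fell in OVE853, and 1 rose and 2 fell in OVE918. Before adjustment, 7 and 8 of these had a p under 0.05, and DESeq2 called 3 and 4. The summed level of the ATPase list was 2989 to 3471 CPM in WT, 2342 to 2457 in OVE853 and 1935 to 2044 in OVE918.

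Of 8 kinases that act on cotransporters and channels, 0 rose and 2 fell in each line, where 3.72% and 5.34% of all tested genes fell. Sgk1, a hormone-responsive kinase known to raise the surface activity of several K+ channels, was at 64.5, 65.9 and 110 CPM in WT, 8.17 to 9.89 in OVE853 and 8.68 to 14.7 in OVE918 (-3.11, FDR = 6.62e-05, and -2.71, FDR = 2.93e-05), and without WT replicate 3 it was at -2.84 and -2.42. Wnk4, which regulates chloride cotransport, fell as well (-1.63 and -2.80). Of 7 tested cation-chloride cotransporters, 0 passed edgeR's test in either line, where 5 in OVE853 and 3 in OVE918 had a p under 0.05 before adjustment and DESeq2 called 1 and 2. Of 8 tested cyclic nucleotide-gated channels, 0 passed edgeR's test, where 3 and 1 had such a p and DESeq2 called 1 and 0. The anion channel list held Lrrc8a to Lrrc8e, Clcn2 and Clcn3. Of these 7 genes, 1 rose in each line, Lrrc8c (1.34 and 1.45), where 3.17% and 3.45% of all tested genes rose. The median log2 fold changes of these lists in OVE853 and OVE918 were -1.78 and -1.71 for the partners, -0.70 and -0.66 for the ATPase genes, 0.03 and -0.09 for the kinases, 0.19 and -0.03 for the cotransporters, -1.01 and -0.79 for the cyclic nucleotide-gated channels and 0.14 and 0.21 for the anion channels. These medians moved with WT replicate 3: without it they were -0.44 and -0.44 for the partners, -0.33 and -0.27 for the ATPase genes, -0.12 and -0.16 for the kinases, 0.11 and -0.08 for the cotransporters, -0.16 and 0.21 for the cyclic nucleotide-gated channels and 0.39 and 0.13 for the anion channels.

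Promoters are printed for Kcnk1 and Kcng4, the members that fell together in both lines in every leave-one-out fit. Each holds 250 bases before and 50 after the start in the RefSeq table of GRCm38.p6 and was placed on GRCm39 by its only exact match. Capitals mark CAGAC or its reverse complement and CAGGTG, read on either strand.
Kcnk1, chr8:126721591-126721890, plus strand: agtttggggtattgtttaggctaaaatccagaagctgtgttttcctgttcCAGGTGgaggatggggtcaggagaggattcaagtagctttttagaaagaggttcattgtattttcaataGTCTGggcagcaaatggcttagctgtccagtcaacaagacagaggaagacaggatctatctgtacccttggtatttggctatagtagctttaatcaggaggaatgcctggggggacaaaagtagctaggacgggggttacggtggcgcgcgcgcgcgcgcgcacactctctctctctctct
Kcng4, chr8:120362370-120362669, minus strand: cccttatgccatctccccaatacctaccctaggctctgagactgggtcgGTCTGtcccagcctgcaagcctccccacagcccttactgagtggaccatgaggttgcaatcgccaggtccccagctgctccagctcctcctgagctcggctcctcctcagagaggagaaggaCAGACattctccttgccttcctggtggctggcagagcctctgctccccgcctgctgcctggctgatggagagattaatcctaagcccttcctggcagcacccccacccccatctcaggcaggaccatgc
CAGAC, the core to which SMAD proteins of the TGF-β pathway bind, lies in 50% of the 60 promoters found for 42 members and in 49.6% of all 32851 promoters of the table. The E-box CAGGTG lies in 28.3% and 20.2%, the AP-1 motif TGANTCA in 5% and 7.81%, and the SMAD palindrome GTCTAGAC in 0% and 0.213%. These are counts of letters in a fixed window and say nothing of binding.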

How the data were processed

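Reads had been trimmed by the authors (Cutadapt 5.2), placed on mm39 (STAR 2.7.11b) and assigned as pairs, by strand, to the exons of each gene (featureCounts 2.0.8). The deposited values are raw counts per gene and library. FPKM used exon lengths of the GENCODE vM39 primary transcripts matched by symbol.

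Groups came from the labels. Counts were fitted with edgeR 4.0.16 in R 4.3.3 (TMM, filterByExpr with a minimum count of 10, robust quasi-likelihood fit over all 10 libraries). A gene was called at a Benjamini-Hochberg FDR of at most 0.05 and a log2 fold change of at least 1. SE is the log2 fold change divided by the root of the F statistic. The code was tested on simulated counts. Alternatives used DESeq2 1.42.0, limma 3.58.1 voom, other filters and scalings, a replicate block and each library left out.

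The genes named were the called members and the highest of each family, 25 in all, and further genes were named after their values were seen. The members, families and lists were chosen with earlier results of these data known. Replicates are pools of mice, and library depth sets the precision of low members. Some items are not reported here, in text or figures, and the counts of members include them.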

Additional observations from a re-analysis of the deposited data

Results flagged for a closer look

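Single-library deviations were looked for in the OVE918 group over 26 genes, with Dixon's ratio of the gap to the range above its 95% limit for 4 samples, which chance passes in about 1 in 20 groups. Kcnma1 in OVE918 replicate 1, at 19.8 CPM, had a ratio of 0.909, and Kcnd2 in the same library, at 0.452 CPM, a ratio of 0.869. That library also had the highest summed level of retinal neuron markers in its group, at 201 CPM, and their part in these values was not tested. The effects of the 2 lines against WT differed for Kcnj13, whose log2 fold change between OVE918 and OVE853 was -2.27.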

How the results depend on the processing

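Over the alternatives, 886 values of single genes kept their direction and side of the threshold, 192 lost a call, 16 gained one and 2 changed sign near 0: Kcnj12 in OVE853 without WT replicate 1 (leave-one-out range -0.21 to 0.02) and Kcnma1 in OVE918 without WT replicate 3 and OVE918 replicate 4 (0.02, leave-one-out range -2.03 to -0.12). The causes were not tested. Members called in OVE853, 14 as reported, were 4 with 2 FPKM in 5 or in 6 libraries, 30 with DESeq2, 8 with only the groups compared, 1 when tested against a fold change of 2 and 2 to 29 over the leave-one-out fits. Members called in OVE918, 20 as reported, were 6, 6, 11 and 4 under the filters, the groups compared and the fold change of 2, and 12 to 26 over the leave-one-out fits. Between the lines, 1 as reported, the count was 0 with either FPKM filter, RLE scaling or the fold change of 2, 2 with voom and 0 to 2 over the leave-one-out fits. The FPKM filters removed Kcnj13 before the test, as it reached 2 FPKM in none of the 10 libraries, so they could not test its call. Genes called in OVE853 versus WT, 1244 as reported, were 491 and 464 with the FPKM filters, 825 with only the groups compared, 2449 by FDR alone, 243 against a fold change of 2 and 592 to 1982 with 1 library left out. Genes called in OVE918 versus WT, 1587 as reported, were 622, 581, 3050 by FDR alone and 553 against a fold change of 2. Genes called in OVE918 versus OVE853, 44 as reported, were 212 with DESeq2, 325 with voom, 168 with only the groups compared, 68 by FDR alone, 0 against a fold change of 2, 0 to 172 with 1 library left out, 97 without WT replicate 3 and OVE918 replicate 4, and 109 without WT replicate 3 and OVE918 replicate 1, chosen after seeing the data. The replicate numbers did not pair the samples: 1 of 9 same-number correlations was over 0.1 (-0.344 to 0.265), and 1 of 9 samples correlated best with its own number. With the replicate block, 7, 10 and 0 members were called in OVE853, OVE918 and between the lines, and 6 genes in all between the lines. Low members had few counts, so that differences in them were not detectable at this depth unless large.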
